A study of Mus musculus with 6 samples.

Results

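Interferon-stimulated genes are the genes that cells switch on when interferon binds its receptors, and 35 of them were followed here in epithelial cells of the mouse colon. They were chosen by name, with earlier results of these data known. Of the 35, 31 had a probe set of their own on the array. Of these, 28 exceeded a floor of 5.81 (log2), below which probe sets were treated as dim, and were tested among 12071 genes. Isg15, Gbp2, Gbp6 and Igtp are named only on probe sets that carry several genes and have no value here. Ifit2, Mx2 and Iigp1 were dim and are given as levels with no test.

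Affymetrix arrays, 6 in all with 1 for each sample, measured expression in cells sorted as positive for EpCAM, an epithelial surface protein, and negative for CD45, the leukocyte antigen encoded by Ptprc. The mice were wild-type BALB/c males aged 6 weeks. All had gone 36 h without food and then eaten again for 24 h. In 3 samples the mice received nothing else (re-fed), and in 3 they received antibiotics while they ate (antibiotics), whose names and doses the labels do not give. The question is how re-feeding with antibiotics differs from re-feeding alone. Samples of a group are labelled as biological replicates, and whether a sample is 1 mouse or a pool is not stated.

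In the textbook account, type I and type III interferons bind their receptors and activate the Janus kinases Jak1 and Tyk2. A complex that contains Stat2 and Irf9 then binds a DNA element called ISRE in the promoters of antiviral genes. Interferon gamma acts through Jak1 and Jak2 on a different element, GAS. Gut epithelium is known for its response to type III interferon, and resident bacteria are known to keep interferon-stimulated genes at a tonic level in several tissues.

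The 12 markers of colonic epithelium were all above the floor, and Epcam stood at 12.16 ± 0.11 in re-fed and 12.12 ± 0.065 in antibiotics samples (log2 expression, SD, n = 3 per group). Other epithelial markers were not as level: 9 of the 12 lay below 0, Krt18 by -0.59 (SE 0.094, limma adjusted p = 0.0692) and Krt20 by -0.46 (SE 0.12, adjusted p = 0.203). The other 3 lay above 0, among them Cdx1 by 0.33 (SE 0.12, limma adjusted p = 0.32). The 12 markers' summed linear level was 77461 to 79750 in re-fed and 71087 to 74024 in antibiotics samples, without overlap, and its part in the results below was not tested. Of all genes tested, 10.7% had groups without overlap and antibiotics lower. Ptprc was dim on every array, between 5.30 and 5.54. The deposited medians of the arrays ran from 5.63, on antibiotics replicate 3, to 6.17, so values were put on 1 scale by quantile normalisation. A set of 4 arrays, antibiotics replicates 1 and 2 with re-fed replicates 2 and 3, are named the common run here. Each pair of them shares 372 to 435 distinct values, found at any probe set, where each array has 35557 probe sets. Each of the other 2 arrays shares fewer with any array, at most 198 for re-fed replicate 1 and at most 67 for antibiotics replicate 3. The results below turn on antibiotics replicates 1 and 3, so the differences over the 28 genes are also given without each of these arrays and within the common run. The main counts of arrays and spreads over the 28 are also given with the deposited scaling.

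After quantile normalisation, the values of most interferon-stimulated genes lay closer together on the 3 re-fed arrays than on the 3 antibiotics arrays. Antibiotics replicate 3 lies outside the common run, and what part this has in the spread was not tested. Antibiotics replicate 1 was the lowest of the 6 arrays for 25 of the 28 genes tested, as it was for 12.4% of all genes tested. Antibiotics replicate 3 was the highest of 6 for 23, against 22.7% of all genes. For 20 of the 28 both held at once, against 2.6% of all genes. With the deposited scaling, where the median of antibiotics replicate 3 is the lowest of all, replicate 1 was the lowest array for 20 of the 28, replicate 3 the highest for 9, and both held for 8, against 0.812%, 0.77% and 0.157% of all genes. Set against the range of the re-fed arrays, antibiotics replicate 1 lay below it for 25 genes, within it for 3 and above it for 0, where all genes gave 27.5%, 42.7% and 29.8%. Antibiotics replicate 2 lay below it for 16, within it for 10 and above it for 2, where all genes gave 27.2%, 43.6% and 29.2%. Antibiotics replicate 3 lay below it for 2, within it for 3 and above it for 23, where all genes gave 35%, 34.3% and 30.7%. With the deposited scaling antibiotics replicate 3 lay below it for 8, within it for 10 and above it for 10, where all genes gave 82.3%, 16.2% and 1.57%. In such bulk samples, fewer cells expressing a gene and less RNA per cell cannot be told apart.

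**Figure D1:**
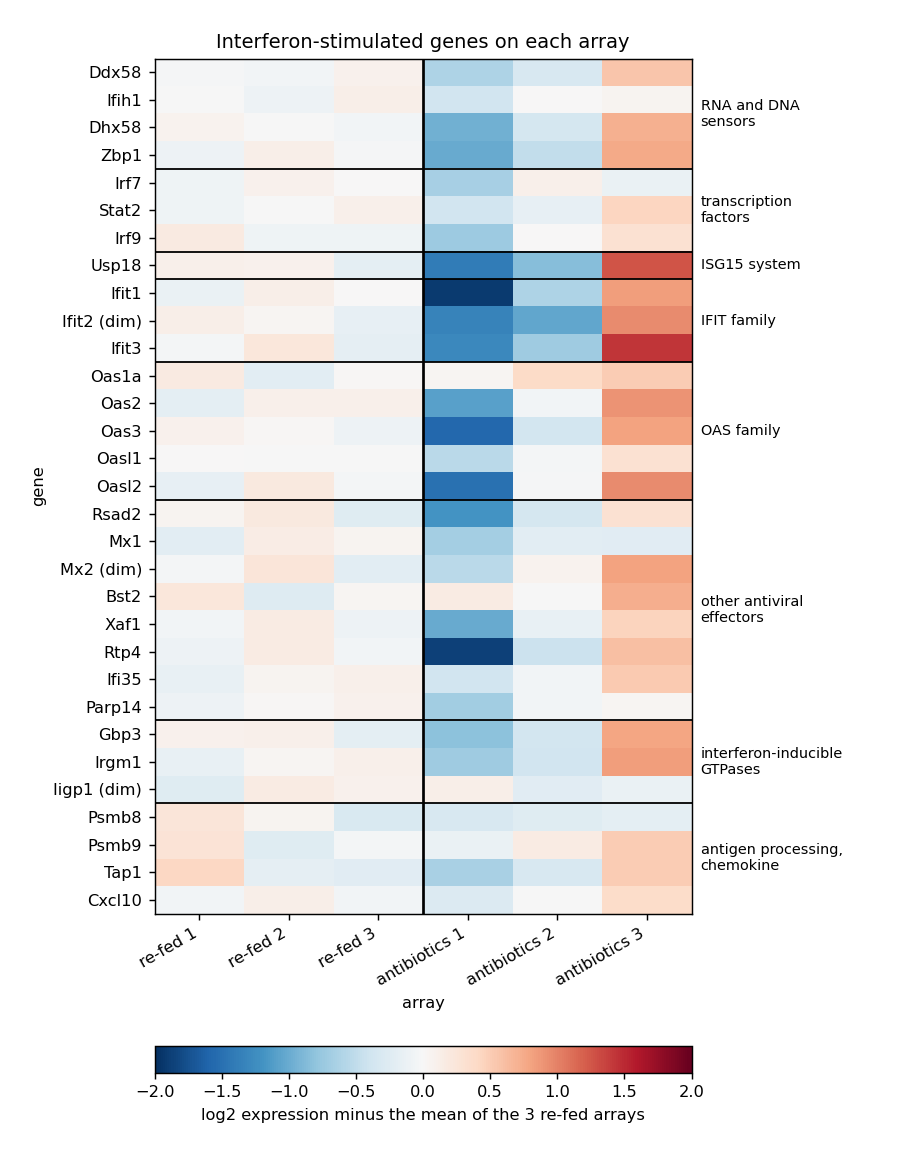
Each row is an interferon-stimulated gene, grouped by role, and each column an array. Colour gives log2 expression after quantile normalisation minus the mean of the 3 re-fed arrays, and 3 genes marked dim were not tested. The re-fed columns are pale, antibiotics replicate 1 is blue for most genes and antibiotics replicate 3 is red for most, the latter for fewer genes with the deposited scaling, where it is the highest array for 9 of the 28 tested.

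The SD over 3 arrays had a median of 0.14 in re-fed and 0.60 in antibiotics samples across the 28 genes. Over all 12071 genes the medians were 0.12 and 0.14. The SD was larger in the antibiotics samples for 27 of the 28 genes, against 57.6% of all genes, the exception being Psmb8. With the deposited scaling it was larger for 23, or 82.1%, close to the 79.6% of all genes. The range, highest minus lowest of 3 arrays, exceeded 1 (a 2-fold span) among antibiotics samples for 16 of the 28 genes and among re-fed samples for 0. Over all genes these shares were 1.13% and 0.596%. With the deposited scaling 10 of the 28 exceeded 1 among antibiotics samples, against 11.3% of all genes. Of the 50 genes with the widest range among antibiotics samples after quantile normalisation, 13 were of the 28. This comparison of spreads was chosen after the values were seen and carries no test.

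**Figure D2:**
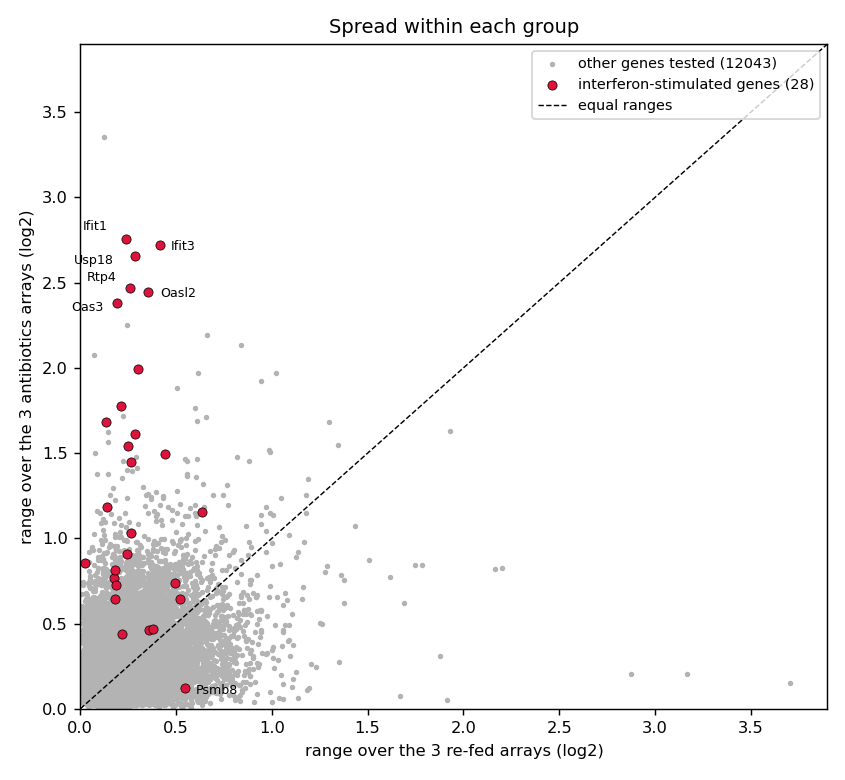
Each point is a gene, with its range over the 3 re-fed arrays on the horizontal axis and over the 3 antibiotics arrays on the vertical axis, both on the log2 scale after quantile normalisation. The 28 interferon-stimulated genes tested (red) lie at re-fed ranges up to 0.63, 27 of them above the line of equal ranges (by SD, 23 were larger in antibiotics samples with the deposited scaling), and Ifit1 reaches 2.75 on the vertical axis.

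The promoters of these genes were read for the ISRE, searched on both strands as GAAA, any 2 bases and GAAA again (TTTC, any 2 bases and TTTC on the other strand). RefSeq promoters of the assembly GRCm38.p6, 250 bases before to 50 after the start of transcription, were found for 25 of the 35 genes. An ISRE occurred in 15 of the 25, or 60%, against 3.99% of the 27025 genes in the table. The GAS element, searched as TTCNNNGAA, which reads the same on both strands, occurred in 6 of 25, or 24.0%, against 9.55%. The genes were chosen as interferon-stimulated, so a high share with an ISRE was built into the list and says nothing about these arrays. A match is a match of letters and not evidence of binding. The windows below run upstream of the start, with ISRE matches in capitals, overlapping matches joined. The first 5 belong to genes whose antibiotics arrays spread by more than 1, and Oas1a and Bst2, shown for contrast, have the element and spread by less.
Ifit1: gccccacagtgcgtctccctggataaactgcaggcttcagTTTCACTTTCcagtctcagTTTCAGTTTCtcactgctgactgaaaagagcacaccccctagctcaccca
Ifit3: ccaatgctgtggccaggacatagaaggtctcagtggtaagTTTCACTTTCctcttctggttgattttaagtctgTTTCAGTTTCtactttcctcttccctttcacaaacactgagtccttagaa
Oas3: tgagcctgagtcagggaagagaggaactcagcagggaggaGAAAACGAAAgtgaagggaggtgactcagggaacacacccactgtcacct
Rsad2: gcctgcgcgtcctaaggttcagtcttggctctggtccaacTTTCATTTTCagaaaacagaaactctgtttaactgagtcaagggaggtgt
Irgm1: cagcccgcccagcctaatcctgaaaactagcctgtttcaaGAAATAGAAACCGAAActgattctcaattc
Oas1a: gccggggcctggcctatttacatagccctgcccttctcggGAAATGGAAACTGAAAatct
Bst2: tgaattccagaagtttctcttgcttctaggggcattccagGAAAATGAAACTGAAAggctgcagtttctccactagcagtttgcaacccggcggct
These windows lie at chr19:34640745-34640853 (plus strand) for Ifit1, chr19:34583333-34583456 (plus) for Ifit3, chr5:120777685-120777774 (minus) for Oas3, chr12:26456523-26456612 (minus) for Rsad2, chr11:48871421-48871490 (minus) for Irgm1, chr5:120907526-120907585 (minus) for Oas1a and chr8:71537547-71537642 (minus) for Bst2.

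Ifit1 and Ifit3 hold a pair of ISREs each, the first of them starting 104 and 156 bases before the start. Among tested genes with a promoter in the table, the 12 with an ISRE had a median antibiotics range of 1.34 and the 9 without had 0.91, with ranges of 0.44 to 2.75 and 0.12 to 2.45 that overlap almost throughout. Oasl2, with no match in its window, spread by 2.45. The table gave no promoter for Dhx58, Zbp1, Usp18, Oas2, Mx1, Mx2, Rtp4, Parp14, Gbp6 and Iigp1.

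Of the IFIT proteins, Ifit1 binds viral RNA that lacks the host's cap methylation and blocks its translation. Ifit1 stood at 8.02, 8.26 and 8.15 on re-fed replicates 1 to 3 and at 6.22, 7.52 and 8.98 on antibiotics replicates 1 to 3. Antibiotics replicates 1 and 2 lay below every re-fed array and antibiotics replicate 3 above every one, a span of 6.74-fold among antibiotics samples against 1.18-fold among re-fed ones. The group means were 8.14 ± 0.12 and 7.57 ± 1.38 (SD, n = 3), a difference of -0.57 (SE 0.53, limma adjusted p = 0.687). Ifit3 read 6.61, 6.88 and 6.46 in re-fed and 5.36, 5.94 and 8.08 in antibiotics samples, the same placing of arrays (difference -0.19, SE 0.56, adjusted p = 0.916). Ifit2, dim in the mean, read 6.13, 6.04 and 5.84 against 4.66, 4.96 and 6.95.

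Usp18 removes the ubiquitin-like modifier ISG15 from proteins and restrains signalling at the type I receptor. It stood at 7.77, 7.76 and 7.48 in re-fed and at 6.28, 6.83 and 8.93 in antibiotics samples, a span of 6.29-fold. Here too 2 antibiotics arrays lay below and 1 above the re-fed arrays, and the difference of -0.33 (SE 0.54, adjusted p = 0.84) was smaller than its error.

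The oligoadenylate synthetases make a messenger that activates RNase L, and the OASL proteins are related to them. Oas3 read 7.87, 7.80 and 7.68 in re-fed and 6.21, 7.41 and 8.58 in antibiotics samples. Oas2 read 7.04, 7.34 and 7.34 against 6.15, 7.18 and 8.14, and Oasl2 read 9.78, 10.13 and 9.91 against 8.45, 9.92 and 10.89. In all of them antibiotics replicate 1 was the lowest and replicate 3 the highest array, with spans of 5.20-fold, 3.98-fold and 5.45-fold. Oasl1, at 10.44, 10.42 and 10.42 in re-fed samples, had the smallest re-fed SD of the 28 (0.012) and read 9.88, 10.39 and 10.74 with antibiotics. Oas1a did not share the pattern: its values of 6.02, 5.64 and 5.87 without and 5.88, 6.22 and 6.35 with antibiotics overlapped and gave 0.31 (SE 0.15, adjusted p = 0.435). Oas1a belongs to a cluster of near-identical genes, and cross-hybridisation among them was not examined. Differences for the other 4 lay between -0.38 and -0.083, at adjusted p from 0.77 to 0.953.

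The receptors that sense foreign nucleic acid are themselves induced by interferon. Zbp1, a sensor of Z-form nucleic acid that can trigger necroptosis, read 8.67, 8.88 and 8.75 in re-fed and 7.76, 8.28 and 9.53 in antibiotics samples. Dhx58 (LGP2), a regulator of RNA sensing, read 7.68, 7.59 and 7.54 against 6.64, 7.24 and 8.32, and Ddx58 (RIG-I) read 8.32, 8.29 and 8.43 against 7.73, 8.03 and 8.91. All of these lay below the re-fed arrays on antibiotics replicates 1 and 2 and above them on replicate 3. Ifih1 (MDA5), which senses long viral RNA duplexes, spread less: 10.16, 10.06 and 10.28 against 9.78, 10.17 and 10.22, with only antibiotics replicate 1 outside the re-fed range. The sensors' differences ran from -0.24 to -0.11, and 0 of 4 passed.

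Among the transcription factors of the response, Irf7, which amplifies interferon production, stood at 11.29, 11.46 and 11.38 in re-fed and at 10.72, 11.48 and 11.25 in antibiotics samples. Its antibiotics replicate 3 lay below the re-fed arrays, unlike most of the genes it is grouped with. Irf9, the DNA-binding part of the Stat complex, read 8.76, 8.51 and 8.49 against 7.85, 8.59 and 8.88. Stat2 read 8.75, 8.82 and 8.93 against 8.45, 8.67 and 9.26. The spans of these factors among antibiotics samples, 1.70-fold to 2.04-fold, were narrower than those of the IFIT genes, and 0 of 3 passed (differences -0.23 to -0.039).

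Of the other antiviral effectors, Rtp4, a chaperone of receptors that is strongly induced by interferon, read 8.63, 8.89 and 8.68 in re-fed and 6.87, 8.30 and 9.34 in antibiotics samples. Its difference was -0.57 (SE 0.48, adjusted p = 0.649), within its spread. Rsad2 (viperin), which makes a chain-terminating nucleotide, read 8.02, 8.16 and 7.71 against 6.77, 7.61 and 8.26. Xaf1, a pro-apoptotic protein, read 7.05, 7.27 and 7.002 against 6.10, 6.96 and 7.55, and both genes had antibiotics replicate 1 as the lowest and replicate 3 as the highest array. Parp14, an ADP-ribosyltransferase, read 8.94, 9.06 and 9.12 against 8.35, 8.98 and 9.08, with replicate 1 alone outside the re-fed range. Ifi35, a partner of Nmi, read 7.60, 7.80 and 7.84 against 7.36, 7.69 and 8.27.

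Mx1, a GTPase that blocks viral replication and is carried in a defective form by most laboratory strains, was the 1 gene of the 28 whose groups did not overlap. It read 5.99, 6.35 and 6.24 in re-fed and 5.51, 5.98 and 5.98 in antibiotics samples, a narrow gap close to the floor. Its difference of -0.37 (SE 0.15) was also the 1 with an unadjusted p under 0.05 in limma's fit (adjusted p = 0.368). Groups did not overlap for 19.6% of all genes tested, with antibiotics lower for 10.7%. Mx2, dim, read 4.83, 5.11 and 4.65 against 4.33, 4.94 and 5.67. Bst2 (tetherin), which holds budding virus at the cell surface, read 7.47, 6.97 and 7.27 against 7.39, 7.23 and 7.97, with antibiotics replicate 1 inside the re-fed range.

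The interferon-inducible GTPases attack the vacuoles of intracellular pathogens and respond mainly to interferon gamma. Irgm1 read 7.89, 8.08 and 8.14 in re-fed and 7.33, 7.65 and 8.87 in antibiotics samples, and Gbp3 read 6.74, 6.75 and 6.46 against 5.83, 6.29 and 7.45. Both were below the re-fed arrays on 2 antibiotics arrays and above them on the third, spanning 2.91-fold and 3.06-fold. Iigp1 was dim on every array, between 4.07 and 4.47, and followed no such placing.

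Genes of antigen processing and the chemokine Cxcl10 had antibiotics ranges of 0.12 to 1.15. Psmb8, a catalytic subunit of the immunoproteasome, read 8.37, 8.18 and 7.83 in re-fed and 7.81, 7.88 and 7.93 in antibiotics samples, the narrowest antibiotics range of the 28 (0.12). Psmb9, another such subunit, read 8.19, 7.66 and 7.87 against 7.77, 8.08 and 8.41. Tap1, a subunit of the peptide transporter that loads class I molecules, read 8.02, 7.43 and 7.38 against 6.97, 7.30 and 8.12. Of these Tap1 alone had antibiotics replicate 1 as the lowest and replicate 3 as the highest array. Cxcl10, which draws T cells, placed these arrays in the same way and read 5.88, 6.06 and 5.88 against 5.67, 5.93 and 6.31, close to the floor. Here 0 of 4 passed.

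Between the groups, 0 of the 28 genes had an adjusted p under 0.05 in limma's fit (Benjamini-Hochberg over all genes tested), against 0.058% of all genes tested. At an unadjusted p under 0.05 there was 1, lower, against 12.6% of all genes in either direction, 7.32% lower and 5.3% higher. The median difference was -0.17 over the 28 genes, with 23 below 0 and 5 above, against a median of 0.0033 over all genes, of which 49.3% lay below 0. The sign turned on antibiotics replicate 1: without it the median was 0.15, with 5 genes below 0 and 23 above. Without antibiotics replicate 3 the median was -0.47, with 25 below 0 and 15 at an unadjusted p under 0.05, against 14% of all genes in that fit. Replicate 1 was the lowest array for 25 of the 28 and replicate 3 the highest for 23. Both shifts are therefore partly built into leaving these arrays out.

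Within the common run, which leaves out antibiotics replicate 3 and re-fed replicate 1, 25 of the 28 genes lay below 0, against 47.4% of all genes, with a median of -0.51. At an unadjusted p under 0.05 there were 15, all lower, against 17.4% of all genes in either direction. Antibiotics replicate 3 was the highest of the 6 arrays for 23 of the 28 genes. Leaving it out by itself lowers the antibiotics mean of those 23, so the shift is partly built into this choice of arrays. With adjustment 0 passed, against 0.447% of all genes. Ifit1 differed there by -1.33 (SE 0.34, adjusted p = 0.132), Rtp4 by -1.20 (SE 0.38, adjusted p = 0.181), Usp18 by -1.07 (SE 0.18, adjusted p = 0.0648) and Ifit3 by -1.02 (SE 0.21, adjusted p = 0.0823). In this fit the 3 genes above 0 were Oas1a (0.30), Bst2 (0.19) and Psmb9 (0.15).

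**Figure D3:**
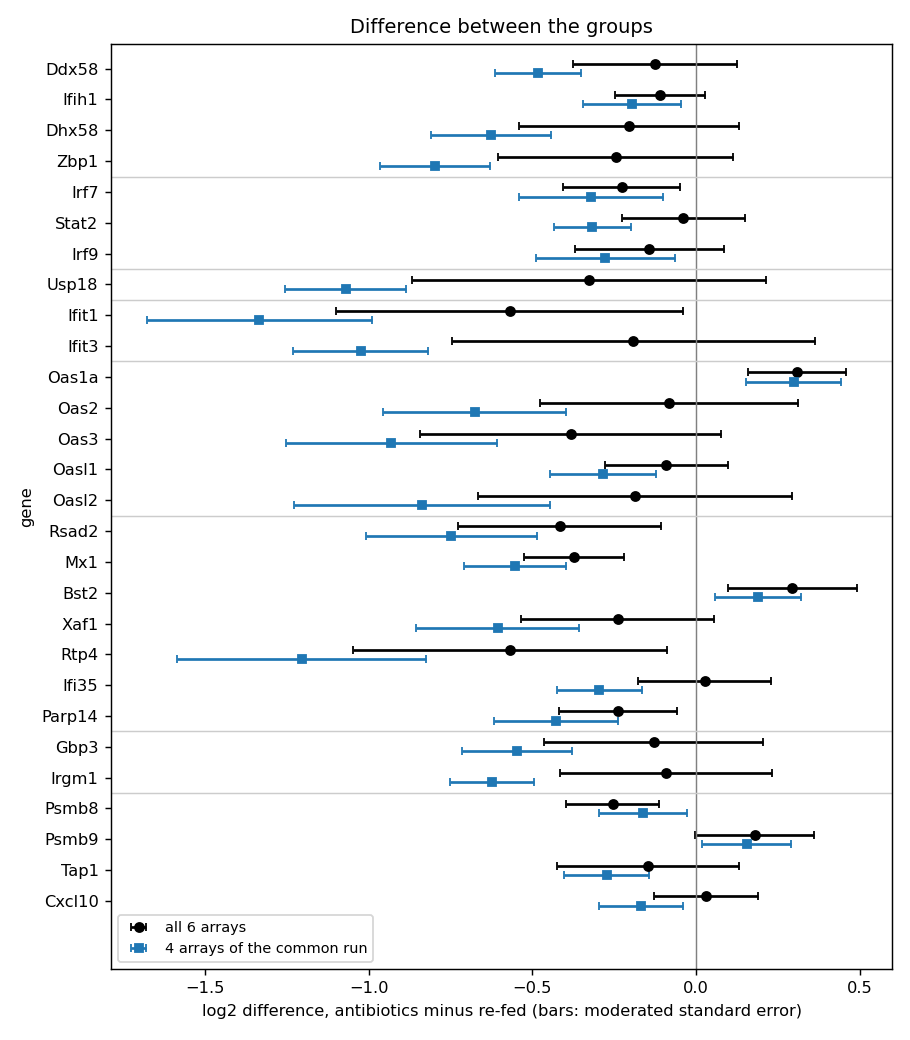
Log2 differences, antibiotics minus re-fed, of the 28 genes tested, over all 6 arrays (black circles) and within the 4 arrays of the common run (blue squares), with moderated standard errors from limma. Most squares lie further below 0 than the circles, Ifit1 at -1.33 against -0.57, and no gene passed the adjusted threshold in either fit.

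Arrays were also weighted by how well they fit the group means over all genes. Antibiotics replicates 1 to 3 then received weights of 3.82, 0.69 and 0.33. The antibiotics mean in this fit rests mostly on replicate 1, the lowest array for 25 of the 28 genes. With these weights 8 of the 28 passed, all lower: Ifit1, Rtp4, Rsad2, Oas3, Mx1, Zbp1, Xaf1 and Parp14. Of all 12071 genes tested, 1169 were called. Ifit1 differed by -1.59 (SE 0.38, adjusted p = 0.0312) and Mx1 by -0.65 (SE 0.13, adjusted p = 0.0158) in that fit. With equal weights 0 of these 8 passed.

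Further genes of the pathway were taken from lists drawn up by function. Of 52 other interferon-induced genes, 34 were tested and 0 passed in either direction (3 lower and 1 higher at an unadjusted p under 0.05), with 17 below and 17 above 0. That balance rests on all 6 arrays: the list's median was -0.0071 over them and -0.24 within the common run. For 17 of the 34, antibiotics replicate 1 was the lowest and replicate 3 the highest array after quantile normalisation, as for 2.6% of all genes. This count is not given with the deposited scaling, where that of the 28 genes fell from 20 to 8. Trim30a, a TRIM protein of innate signalling, read 7.75, 7.63 and 7.66 in re-fed and 5.59, 7.15 and 8.94 in antibiotics samples. After quantile normalisation this was the widest antibiotics range of all 12071 genes (3.35). The difference of Trim30a was -0.45 (SE 0.64, adjusted p = 0.809) over 6 arrays and -1.28 (SE 0.41, adjusted p = 0.183) within the common run. Helz2, a helicase co-activator, read 9.67, 9.54 and 9.59 against 9.06, 9.21 and 9.22 and did not share that placing (-0.44, SE 0.10, adjusted p = 0.162). Ifi27l2a, a small interferon-induced membrane protein, was called in the common run (-0.98, SE 0.13, adjusted p = 0.0361) and not over all 6 arrays (-0.57, SE 0.22, adjusted p = 0.339). Tor3a, an interferon-induced torsin, differed by -0.37 (SE 0.13, adjusted p = 0.296) and Trim34a by 0.40 (SE 0.12, adjusted p = 0.252).

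The ligands were mostly dim: 16 of 20 listed had a probe set and 4 were tested, of which 0 passed and 2 had an unadjusted p under 0.05, both higher. Ifnl2, a type III interferon, read 7.45, 7.44 and 7.94 in re-fed and 8.47, 8.08 and 8.23 in antibiotics samples, so that the groups did not overlap (0.65, SE 0.16, adjusted p = 0.184). Groups did not overlap, with antibiotics higher, for 8.88% of all genes. Its paralog Ifnl3 is nearly identical, and the probes were not examined for shared signal. Ifna5 differed by 0.32 (SE 0.13, adjusted p = 0.354). Ifnb1 and Ifng were dim, at most 4.98 and 5.56 on any array.

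Of 9 receptors and Janus kinases, 8 were tested and 0 passed (1 lower at an unadjusted p under 0.05), with a median of -0.13. Jak2 averaged 9.45 ± 0.035 in re-fed and 9.14 ± 0.22 in antibiotics samples, -0.31 apart (SE 0.12, adjusted p = 0.353), and Jak1 differed by -0.22 (SE 0.10, adjusted p = 0.417). Ifnlr1, the receptor chain for type III interferon, read 8.12, 7.93 and 7.89 against 7.47, 8.01 and 7.80. In none of the 8 was antibiotics replicate 3 the highest array.

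Of 7 further transcription factors tested, 0 passed (1 lower and 1 higher at an unadjusted p under 0.05). Irf1, induced by interferon gamma, differed by -0.32 (SE 0.13, adjusted p = 0.353) and Nlrc5, the activator of class I genes, by 0.44 (SE 0.15, adjusted p = 0.303). Irf1 has 2 probe sets and Nlrc5 19, and each value is from the probe set that averaged highest. Of 10 negative regulators, 0 passed (2 higher at an unadjusted p under 0.05), and Irf2bp2, a corepressor, differed by 0.59 (SE 0.15, adjusted p = 0.195). Of 10 sensing adaptors and kinases, 0 passed, with 0 at an unadjusted p under 0.05. Of 12 genes of class I presentation, 0 passed (1 higher at an unadjusted p under 0.05, Psmb10 at 0.24, SE 0.10, adjusted p = 0.38). Their antibiotics ranges after quantile normalisation had a median of 0.21, against 0.59 for the 34 other interferon-induced genes and 1.17 for the 28.

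**Figure D4:**
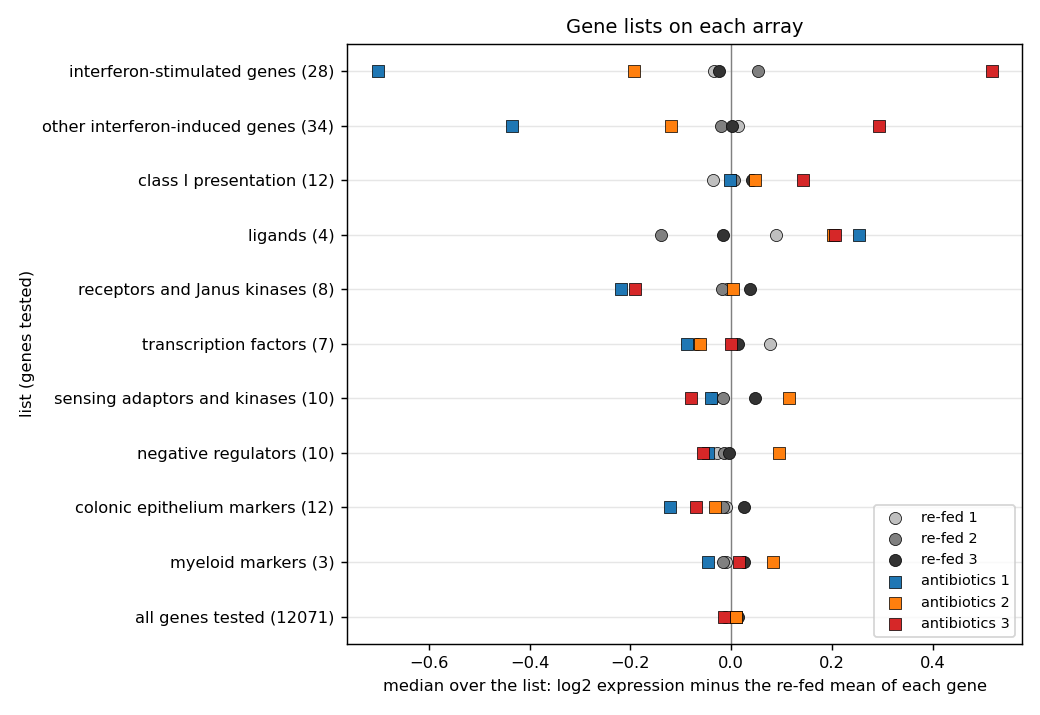
Each row is a gene list with its number of genes tested, and each point an array: the median over the list of log2 expression minus the re-fed mean of each gene, after quantile normalisation. The 28 interferon-stimulated genes stand at -0.70, -0.19 and 0.52 on antibiotics replicates 1 to 3 and the 34 other interferon-induced genes at -0.44, -0.12 and 0.29, while all genes tested stay between -0.014 and 0.014.

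Markers of leukocytes, which respond to interferon and make it, were set beside this pattern. Of 12 T cell and intraepithelial lymphocyte genes measured, 11 were dim, and their summed linear level was 459 to 490 in re-fed and 456 to 459 in antibiotics samples. Of 11 myeloid and plasmacytoid genes 8 were dim, with sums of 618 to 711 and 629 to 745, and of 6 B and plasma cell genes 4 were dim, with 1331 to 1480 and 1037 to 1290. Most of the last sum is Sdc1, which epithelium also expresses, at 10.25 ± 0.10 in re-fed and 9.95 ± 0.20 in antibiotics samples (-0.30, SE 0.13, adjusted p = 0.374), so it is no measure of B or plasma cells. Siglech, a marker of plasmacytoid dendritic cells, lay between 5.12 and 5.31 on all arrays. What part such cells have in the spread was not tested. The summed level of the 42 other interferon-induced genes measured, in comparison, was 18098 to 18221 in re-fed and 13903 to 22750 in antibiotics samples.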

How the data were processed

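The authors deposited log2 expression values of 35557 probe sets on 6 arrays, and the submitters' processing notes name RMA, without a version. Array medians differ, so the 23410 probe sets that carry a gene were quantile normalised. Platform annotation named 1 gene for 21789 probe sets, several for 1621 and none here for 12147. Each of 19938 genes took whichever probe set averaged highest (each of the 31 genes followed here has 1), and genes averaging below 5.81, the 40th percentile, were not tested, since RMA gives no detection call. The groups entered a linear model in limma 3.58.1 under R 4.3.3 (lmFit and eBayes, two-sided, no block, Benjamini-Hochberg over 12071 genes, threshold 0.05). The procedure was tested on simulated data with independent noise and the same spread in both groups. The genes followed here have neither, so that test does not cover them. Precision is limited by having 3 arrays a group.

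The genes followed, the lists and the alternatives were chosen with earlier results of these data known. Every gene of the set is named, and of each pathway list up to 3 tested genes with the smallest unadjusted p were eligible, besides Epcam and Ptprc. Trim30a, Ifi27l2a, Sdc1, Krt18, Krt20, Cdx1, Ifnlr1, Ifnb1, Ifng and Siglech were chosen after their values were seen. Alternatives covered scaling, the floor, array weights, a replicate block, the prior, the probe set rule, the common run and each array left out. Replicate numbers are shared by the groups, but same-numbered arrays did not deviate together, and whether they were paired is not stated. The common run was inferred from identical values, not from a label.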

Additional observations from a re-analysis of the deposited data

How the results depend on the processing

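With 3 arrays a group, limits are set by the spread among antibiotics samples. The count of all genes called was 7, and 45 with the deposited scaling, 62 with median centring, 2 without a floor, 43 with the stricter floor, 54 in the common run, 1169 with array weights, 43 with a trended prior and 0 to 11 without 1 array. With the replicate number as a block it was 7, with 0 of the 28 genes called and a median of -0.17. Deviations from the group means correlated at 0.021, -0.034 and -0.22 for same-numbered arrays and at -0.175 to 0.24 for other pairs. With 3 arrays a group this cannot settle whether the numbers mark pairs, which the labels do not state. Of the 28, 0 passed in every setting run except array weights, where 8 did. The 28 genes' median kept its sign in every setting except without antibiotics replicate 1 (0.15). The median over all genes was 0.0033, but -0.12 with the deposited scaling and -0.080 with median centring, where the 28 had -0.33 and -0.29. Counts of arrays and ranges with the deposited scaling, an alternative chosen after seeing the data, were 9 genes highest on antibiotics replicate 3 and 10 with an antibiotics range above 1.

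Ifi35 turned to -0.14 with the deposited scaling, -0.10 with median centring, -0.30 in the common run and -0.32 with array weights, and Cxcl10 to -0.17 and -0.23 in the last 2. Leaving out 1 array at a time gave from -0.47 to 0.12 for Ddx58, -0.19 to 0.028 for Ifih1, -0.66 to 0.18 for Dhx58, -0.75 to 0.14 for Zbp1, -0.27 to 0.13 for Stat2, -0.36 to 0.15 for Irf9, -1.12 to 0.21 for Usp18, -1.27 to 0.11 for Ifit1, -1.003 to 0.36 for Ifit3, -0.58 to 0.42 for Oas2, -0.97 to 0.21 for Oas3, -0.29 to 0.14 for Oasl1, -0.76 to 0.47 for Oasl2, -0.58 to 0.15 for Xaf1, -1.15 to 0.081 for Rtp4, -0.22 to 0.23 for Ifi35, -0.59 to 0.22 for Gbp3, -0.55 to 0.22 for Irgm1, -0.48 to 0.10 for Tap1 and -0.14 to 0.18 for Cxcl10. Each of these has its lowest value without antibiotics replicate 3 and its highest without antibiotics replicate 1.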
